A study of Mus musculus with 6 samples.

Results

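Runx1, Tal1, Lmo2, Meis1, Mecom, Gata2, Erg, Fli1, Hlf and Gfi1b encode proteins that control transcription in blood stem cells. They were chosen by symbol for that role, 10 genes of the 36976 in the expression table, and all 10 were found and passed the filter on low values. Gdpd3+/+ and Gdpd3-/- mice of the C57BL/6 strain, 10 to 12 weeks old, all carried the SCL-tTA and TRE-BCR-ABL1 transgenes (tet-CML mice), in which withdrawal of doxycycline starts expression of the leukaemia oncogene BCR-ABL1. Cells were taken 5 weeks after this induction from 34 Gdpd3+/+ mice (22 males, 12 females) and 10 Gdpd3-/- mice (5 males, 5 females), pooled within each genotype into 3 RNA samples. LT-CML stem cells, the long-term chronic myeloid leukaemia stem cells, were sorted from bone marrow as CD150+CD48-CD135- cells within the lineage-negative, Sca-1+, c-Kit+ (LSK) gate. SCL is an older name of Tal1, so the driver of the oncogene in both genotypes uses regulatory sequence of a gene described here. Gdpd3 encodes a lysophospholipase D, and its knockout is a small genome-edited deletion just after the start of the coding sequence, so its RNA level is not a full check of the genotype.

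Blood stem cells are kept in a self-renewing, uncommitted state by a small circuit of transcription factors. Tal1, Lmo2, Gata2, Runx1, Erg and Fli1 occupy many of the same regulatory elements in blood progenitors, including elements of their own genes, and Tal1 and Gata2 are held together by the bridging protein Lmo2 and its partner Ldb1. Meis1, Mecom and Hlf support the self-renewal of stem cells and are also known from leukaemias in which they are overexpressed or fused to other genes, and Gfi1b represses transcription in stem cells and in the red cell and platelet lineages.

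RNA was amplified with the SMART-Seq v4 kit, which does not mark the strand, and read as pairs of 150 bases. Levels are FPKM, fragments per kilobase of gene length scaled to the same library total, which allow levels of different genes to be compared per length. In the sentences below, values of a gene in Gdpd3+/+ are given for replicates 1, 2 and 3 in that order and values in Gdpd3-/- for replicates 5, 6 and 7. Depth, read from the steps in which FPKM times gene length moves in each library, was 4.98, 6.28 and 6.13 Gb of covered bases in Gdpd3+/+ and 2.13, 3.64 and 2.51 Gb in Gdpd3-/-. Each Gdpd3-/- library was thus shallower than each Gdpd3+/+ library, by 2.44 times between the medians, and depth and genotype cannot be told apart. The least covered of the 10 genes was Tal1 in Gdpd3-/- replicate 5, with covered bases equal to about 505 reads of 150 bases, and the most covered was Lmo2 in Gdpd3+/+ replicate 2, with about 21346. Gdpd3 itself (ENSMUSG00000030703.7) was at 7.30, 3.29 and 2.95 FPKM in Gdpd3+/+ and at 0.110, 0.0129 and 0.681 FPKM in Gdpd3-/-. The genotypes did not overlap, and replicate 7 was the highest of the knockouts. The fitted log2 fold change of Gdpd3 was -4.00 (limma adjusted p = 0.0588), with an adjusted p of 0.0106 without Gdpd3-/- replicate 7 of 0.0481 among genes with a mean of at least 1 FPKM, and of 0.269 without Gdpd3+/+ replicate 1. Of the exon bases of Gdpd3, 190 also belong to Gm9967 on the opposite strand, and the libraries cannot assign reads there.

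The libraries were checked against markers of the sorted cells. The transcripts of the positive markers Ly6a (Sca-1), Kit and Slamf1 (CD150) were above 0 in every library, with Ly6a at 395, 342 and 410 FPKM in Gdpd3+/+ and at 563, 360 and 408 FPKM in Gdpd3-/-. Slamf1 was at 11.7, 10.1 and 10.3 FPKM in Gdpd3+/+ and at 5.41, 13.2 and 7.71 FPKM in Gdpd3-/-, with overlap between the genotypes. Transcripts of the proteins that the sort gates out were not absent, and Flt3 (CD135) was at 11.0, 10.6 and 9.80 FPKM in Gdpd3+/+ against 46.5, 37.8 and 36.8 FPKM in Gdpd3-/-.

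All 10 transcription factor genes were expressed in all 6 libraries, as shown in the plot of the level of each gene. Lmo2 stood highest in Gdpd3+/+, at a mean of 235 FPKM, and ranked 263 of 24689 genes by its mean over all libraries. Fli1 followed at 63.1 FPKM, then Gfi1b at 49.8, Gata2 at 48.3, Meis1 at 41.6 and Hlf at 24.0 FPKM. Erg at 9.76, Mecom at 9.18, Runx1 at 8.24 and Tal1 at 5.83 FPKM were the lowest, and Tal1 ranked 8577 of 24689. In this order the Gdpd3+/+ libraries of Gfi1b and Gata2 overlapped, as did those of Erg and Mecom and those of Mecom and Runx1. The libraries of Gata2 and Meis1 were separated only narrowly, both ending at 44.3 FPKM after rounding, and the other neighbours did not overlap. The bridging protein of the complex was thus encoded by far more transcript than its DNA-binding partner Tal1 in the same cells. Transcript levels do not give protein levels, which were not measured.

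**Figure D1:**
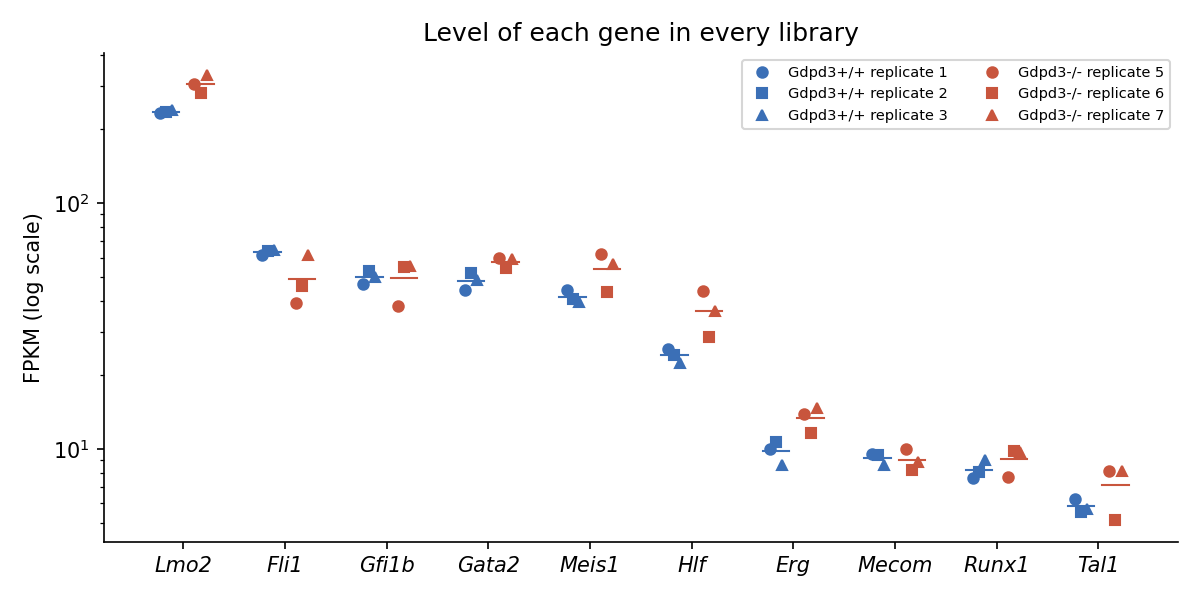
FPKM (log scale) of each of the 10 genes in the 6 libraries, with blue points for Gdpd3+/+, red points for Gdpd3-/- and a line at each group mean. Lmo2 lies between 233 and 331 FPKM and Tal1 between 5.15 and 8.11 FPKM, and for most genes the Gdpd3-/- points are more widely spread.

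The scatter between libraries was wider in Gdpd3-/- for 9 of the 10 genes, all except Gata2. Their median coefficient of variation was 6.12% in Gdpd3+/+ and 15.5% in Gdpd3-/-. The same held for most genes in the table, with a wider scatter in Gdpd3-/- for 81.5% of the 21939 genes expressed in both genotypes and medians of 13% and 34%. The part of depth, or of the smaller number of mice, in this scatter was not tested.

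The question for the genotypes is whether loss of Gdpd3 in LT-CML stem cells goes with a different level of these regulators. Limma's moderated test on log2(FPKM + 0.1), with Benjamini-Hochberg adjustment over all 24689 genes tested, called 422 genes at an adjusted p under 0.05 (1.71%), of which 270 were higher (1.09%) and 152 lower (0.616%) in Gdpd3-/-. It called 0 of the 10 transcription factor genes. At an unadjusted p under 0.05, 5 of the 10 passed, all with higher values in Gdpd3-/- (Lmo2, Meis1, Gata2, Erg and Hlf), where 5493 of all genes (22.2%) passed. That count and its direction depended on the scaling and on single libraries. After TMM scaling 1 passed, Fli1, with lower values (19.8% of all genes), and with no intensity trend 1 passed, Hlf (19.9%). The count was 2 without Gdpd3+/+ replicate 1 (13.5% of all genes), 2 without Gdpd3+/+ replicate 3 (3238 of 24862 genes), 3 without Gdpd3-/- replicate 5 (23.7%) and 3 without Gdpd3-/- replicate 7 (31.0%). It was 4 without Gdpd3+/+ replicate 2 (14.2%) and 6 without Gdpd3-/- replicate 6 (26.4%). All Gdpd3-/- libraries lay above all Gdpd3+/+ libraries for 4 of the 10 (Lmo2, Gata2, Erg and Hlf), beside 23.5% of all genes, and below them for Fli1 alone, beside 8.27% of all genes. These are bulk libraries, in which fewer cells of a type and less RNA per cell cannot be told apart. The count of the 10 genes lying above was 6 without Gdpd3-/- replicate 5 (32.2% of all genes) and 6 without Gdpd3-/- replicate 6 (34.7%). The number of genes called over the whole table rests on single libraries. It was 0 without Gdpd3+/+ replicate 1, 1 without Gdpd3+/+ replicate 2, 21 without Gdpd3+/+ replicate 3, 187 without Gdpd3-/- replicate 5 and 3413 without Gdpd3-/- replicate 7.

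The median log2 fold change of the 10 genes was 0.26, close to the 0.24 of all genes tested and above the 0.14 of the 15103 genes with a mean of at least 1 FPKM. The plot of differences shows where each gene lies against that median. Of the 10, 7 had a fitted log2 fold change above 0, beside 16066 of the 24689 genes tested, and 6 lay above the median of all genes. FPKM values share out a fixed total, so they depend on the most abundant transcripts of each library. Scaling by the trimmed mean of M values (TMM), which scales each library on a trimmed set of genes, brought the all-gene median down from 0.24 to 0.05, and quantile normalization moved it to -0.01. After TMM scaling the median of the 10 genes was 0.05 as well. Of the 10, 6 were then above 0, beside 13124 of the 24689 genes tested, and 5 lay above the median of all genes. The Gdpd3-/- libraries lay above for Lmo2 alone (14.5% of all genes) and below for Mecom and Fli1 (15.5% of all genes). The fitted value of Runx1 turned from 0.13 to -0.08. Relative to the median of all genes, Hlf lay 0.33 higher and Fli1 lay at -0.63 as deposited, against 0.31 and -0.65 after TMM scaling, the widest distances to either side.

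**Figure D2:**
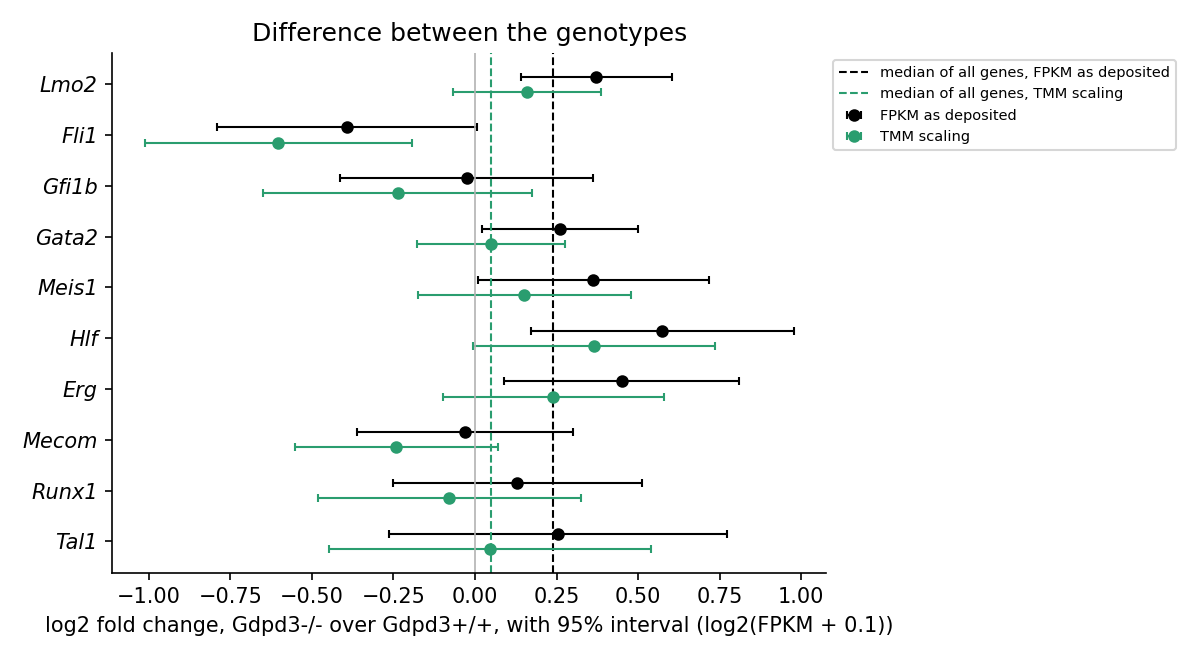
Fitted log2 fold change (Gdpd3-/- over Gdpd3+/+) of each gene with its 95% interval, on FPKM as deposited (black) and after TMM scaling (green), with dashed lines at the median of all genes tested. The fitted values run from -0.39 (Fli1) to 0.57 (Hlf) as deposited, and all values lie further left after TMM scaling, where Runx1 crosses 0.

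Promoter windows are shown for Gata2, Erg, Meis1 and Hlf, because the levels of these genes moved together over the 6 libraries (Pearson r of 0.756 to 0.982 between pairs, n = 6 libraries, a description). The windows are the 250 bases before a transcription start in the RefSeq promoter table (build GRCm38.p6), in which 8 of the 10 genes had entries, with 14 windows in all, and Lmo2 and Fli1 had none. For a gene with several windows, the window with the most matches is shown. Erg had 3 windows, 2 of them with 5 matches each. Of these 2 the window with more GATA matches is shown, while the other (chr16:95530366-95530615) holds 1 GATA and 4 GGAA matches. The remaining Erg window (chr16:95586594-95586843) holds 0 GATA, 0 GGAA and 0 TGTGGT matches. Capitals mark, on either strand, the letters GATA (the core bound by GATA factors such as Gata2), GGAA (the core bound by ETS factors such as Erg and Fli1) and TGTGGT (a core bound by Runx factors), and no marked cores overlap in these windows. Among 32851 windows of the same length, 53.6% held GATA, 93.4% held GGAA and 14.0% held TGTGGT. In the 14 windows of the transcription factor genes, 8 held GATA, 13 held GGAA and 1 held TGTGGT. The Gata2 window (chr6:88193641-88193890, plus strand) holds 3 GGAA and 0 GATA matches, and the Erg window (chr16:95459349-95459598, minus strand) holds 3 GATA and 2 GGAA matches. The Meis1 window (chr11:19018970-19019219, minus strand) holds 3 GGAA matches and the single TGTGGT match, and the Hlf window (chr11:90390918-90391167, minus strand) holds 4 GGAA matches and 1 GATA match. A match is a description of the letters and not evidence of binding.
Gata2: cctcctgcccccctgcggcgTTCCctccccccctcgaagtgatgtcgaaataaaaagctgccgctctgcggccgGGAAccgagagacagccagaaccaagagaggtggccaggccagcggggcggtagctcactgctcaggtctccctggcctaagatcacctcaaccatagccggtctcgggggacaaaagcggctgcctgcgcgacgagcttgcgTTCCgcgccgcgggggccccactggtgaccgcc
Erg: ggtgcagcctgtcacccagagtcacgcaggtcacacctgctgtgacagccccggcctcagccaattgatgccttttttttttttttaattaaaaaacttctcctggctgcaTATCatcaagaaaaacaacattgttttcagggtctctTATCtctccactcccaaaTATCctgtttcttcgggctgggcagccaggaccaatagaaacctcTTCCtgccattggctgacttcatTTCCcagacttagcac
Meis1: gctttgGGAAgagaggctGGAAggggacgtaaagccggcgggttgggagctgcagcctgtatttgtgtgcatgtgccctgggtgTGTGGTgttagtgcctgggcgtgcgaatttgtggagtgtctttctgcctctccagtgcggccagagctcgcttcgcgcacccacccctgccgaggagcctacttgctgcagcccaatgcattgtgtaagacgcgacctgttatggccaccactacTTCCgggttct
Hlf: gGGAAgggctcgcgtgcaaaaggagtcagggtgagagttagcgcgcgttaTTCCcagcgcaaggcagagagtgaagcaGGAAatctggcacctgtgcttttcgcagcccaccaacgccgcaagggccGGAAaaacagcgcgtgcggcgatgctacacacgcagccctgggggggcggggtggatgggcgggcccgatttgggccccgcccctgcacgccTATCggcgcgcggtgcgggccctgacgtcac

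Tal1 (ENSMUSG00000028717.6, chromosome 4 in mm9, 114729031 to 114744360, plus strand) is a basic helix-loop-helix protein that binds DNA together with an E protein. It was at 6.24, 5.55 and 5.71 FPKM in Gdpd3+/+ and at 8.10, 5.15 and 8.11 FPKM in Gdpd3-/-. Replicates 5 and 7 of Gdpd3-/- lay above all Gdpd3+/+ libraries and replicate 6 below all of them, so the genotypes overlapped on both sides. The means were 5.83 ± 0.364 FPKM (SD, n = 3) and 7.12 ± 1.71 FPKM (SD, n = 3), a ratio of 1.22. Its log2 fold change of 0.26 had a 95% interval from -0.26 to 0.77 (adjusted p = 0.506). A two-sided exact permutation test of the means gave p = 0.4, where the 20 assignments of 3 libraries against 3 allow no p under 0.1.

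Lmo2 (ENSMUSG00000032698.8, chromosome 2, 103798143 to 103822035, plus strand) has LIM domains and no DNA-binding domain, and bridges Tal1, GATA factors and Ldb1. Its values were 233, 236 and 238 FPKM in Gdpd3+/+ and 305, 279 and 331 FPKM in Gdpd3-/-. The Gdpd3+/+ libraries were nearly level, and every Gdpd3-/- library lay above them, with replicate 7 the highest. Mean FPKM was 235 ± 2.74 (SD, n = 3) against 305 ± 25.9 (SD, n = 3), a ratio of 1.30. Its log2 fold change of 0.37 (95% interval 0.14 to 0.60) did not pass the test over all genes (limma adjusted p = 0.0957), and it was 0.16 after TMM scaling with an interval from -0.07 to 0.39. The exact permutation p was 0.1, the smallest possible.

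Gata2 (ENSMUSG00000015053.8, chromosome 6, 88143885 to 88157024, plus strand), whose promoter window is printed above, is the zinc finger GATA factor that prevails before red cell and megakaryocyte commitment. Levels were 44.3, 51.8 and 48.7 FPKM in Gdpd3+/+ and 59.8, 54.3 and 59.3 FPKM in Gdpd3-/-. The highest Gdpd3+/+ library and the lowest Gdpd3-/- library, replicates 2 and 6, were close but did not overlap. The group means of 48.3 ± 3.77 and 57.8 ± 3.03 FPKM (SD, n = 3 each) gave a ratio of 1.20, and the exact permutation p was 0.1. The fitted log2 fold change was 0.26, with an interval from 0.02 to 0.50 (limma adjusted p = 0.195), and 0.05 after TMM scaling, level with the median of all genes there.

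Gfi1b (ENSMUSG00000026815.8, chromosome 2, 28464970 to 28477502, minus strand) is a zinc finger repressor that recruits the histone demethylase Kdm1a and its corepressor Rcor1. Its FPKM was 46.8, 52.7 and 49.9 in Gdpd3+/+ and 38.3, 54.9 and 55.5 in Gdpd3-/-. Gdpd3-/- replicate 5 lay below all Gdpd3+/+ libraries and replicates 6 and 7 above all of them. The means, 49.8 ± 2.99 and 49.5 ± 9.75 FPKM (SD, n = 3 each), were nearly equal (exact permutation p = 1). The log2 fold change was -0.03, from -0.41 to 0.36 in the 95% interval, and its sign depended on single libraries, with 0.15 without Gdpd3-/- replicate 5 and 0.02 without Gdpd3+/+ replicate 2.

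Erg (ENSMUSG00000040732.11, chromosome 16, 95580776 to 95808200, minus strand) is an ETS factor needed for stem cell maintenance. It was at 9.96, 10.7 and 8.64 FPKM in Gdpd3+/+ and at 13.8, 11.6 and 14.7 FPKM in Gdpd3-/-. All Gdpd3-/- libraries lay above all Gdpd3+/+ libraries, with replicate 6 nearest to them. The means were 9.76 ± 1.04 and 13.4 ± 1.6 FPKM (SD, n = 3 each), a ratio of 1.37 with an exact permutation p of 0.1. The log2 fold change of 0.45 (0.09 to 0.81) did not pass over all genes (limma adjusted p = 0.153) and was 0.24 after TMM scaling, where the libraries of the genotypes overlapped.

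Fli1 (ENSMUSG00000016087.6, chromosome 9, 32229793 to 32348974, minus strand), the close relative of Erg among the ETS factors, is also used in platelet production. It read 61.5, 63.5 and 64.2 FPKM in Gdpd3+/+ and 39.3, 45.9 and 61.4 FPKM in Gdpd3-/-. Replicates 5 and 6 of Gdpd3-/- were well below the narrow Gdpd3+/+ range, and replicate 7 lay just under its lower end. Means of 63.1 ± 1.38 and 48.9 ± 11.3 FPKM (SD, n = 3 each) gave a ratio of 0.775 (exact permutation p = 0.1). The log2 fold change was -0.39 with an interval from -0.79 to 0.01 (limma adjusted p = 0.229). Without Gdpd3-/- replicate 7 it was -0.57 with an adjusted p of 0.0252, the single setting among 15 in which any of the 10 genes was called. In that setting 14.2% of all genes were called, 4.36% with lower values. Over all settings the adjusted p of Fli1 ran from 0.0252 to 0.497. Fli1 lay below in every library under each scaling tried, at -0.60 after TMM scaling, -0.54 after quantile normalization and -0.39 as deposited.

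Runx1 (ENSMUSG00000022952.9, chromosome 16, 92601712 to 92826311, minus strand) is the DNA-binding subunit of core-binding factor, which pairs with Cbfb. Values in Gdpd3+/+ were 7.62, 8.04 and 9.05 FPKM, and those in Gdpd3-/- were 7.66, 9.82 and 9.69 FPKM. Gdpd3-/- replicates 6 and 7 lay above all Gdpd3+/+ libraries, while replicate 5 was level with the lowest of them. The ratio of the means, 8.24 ± 0.735 and 9.06 ± 1.21 FPKM (SD, n = 3 each), was 1.10 with an exact permutation p of 0.3. Fitted on the log2 scale, the fold change was 0.13, from -0.25 to 0.51 (limma adjusted p = 0.627), with no stable sign under scaling (-0.08 after TMM scaling). Of the exon bases of Runx1, 106 (1.36%) also belong to Gm16801 on the opposite strand.

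Meis1 (ENSMUSG00000020160.10, chromosome 11, 18780433 to 18918961, minus strand) is a homeodomain protein that binds DNA together with other homeodomain proteins. Its levels were 44.3, 40.9 and 39.6 FPKM in Gdpd3+/+ and 62.2, 43.6 and 56.4 FPKM in Gdpd3-/-. Replicates 5 and 7 of Gdpd3-/- were above the Gdpd3+/+ range and replicate 6 lay inside it. The mean went from 41.6 ± 2.41 to 54.0 ± 9.53 FPKM (SD, n = 3 each), a ratio of 1.30 with an exact permutation p of 0.2. The fitted log2 fold change was 0.36, with an interval from 0.01 to 0.72 (limma adjusted p = 0.216), and 0.15 after TMM scaling. Gm16140 on the opposite strand, at a mean of 10.6 FPKM, shares 896 exon bases (12.1%) of Meis1, the widest such overlap among the 10 genes, and reads from those bases could not be assigned by strand.

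Mecom (ENSMUSG00000027684.9, chromosome 3, 29850221 to 30446930, minus strand) encodes the zinc finger protein Evi1 and a longer form with a PR domain, both from this locus of 18 annotated transcripts. In Gdpd3+/+ it was at 9.52, 9.45 and 8.58 FPKM and in Gdpd3-/- at 9.98, 8.20 and 8.83 FPKM. The Gdpd3-/- libraries spanned the whole Gdpd3+/+ range, with replicate 5 highest and replicate 6 lowest. The means of 9.18 ± 0.522 and 9.003 ± 0.905 FPKM (SD, n = 3 each) gave a ratio of 0.980 (exact permutation p = 0.9). The log2 fold change was -0.03, with an interval from -0.36 to 0.30, was 0.03 without Gdpd3-/- replicate 6, and was -0.24 after TMM scaling, where all Gdpd3-/- libraries lay below. FPKM sums the transcripts of a gene, so the forms were not told apart. Gm16722 on the opposite strand shares 81 exon bases (0.766%) of Mecom.

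Hlf (ENSMUSG00000003949.8, chromosome 11, 90197849 to 90252231, minus strand) is a basic leucine zipper factor of the PAR family whose expression marks blood stem cells and ends as they differentiate. It was at 25.6, 24.0 and 22.4 FPKM in Gdpd3+/+ and at 43.9, 28.6 and 36.3 FPKM in Gdpd3-/-. All Gdpd3-/- libraries lay above all Gdpd3+/+ libraries, replicate 5 farthest and replicate 6 nearest. With means of 24.0 ± 1.59 and 36.3 ± 7.66 FPKM (SD, n = 3 each), the ratio of 1.51 was the widest upward ratio of the 10 genes, and the exact permutation p was 0.1. The log2 fold change of 0.57 (0.17 to 0.98) did not pass over all genes (limma adjusted p = 0.118), and was 0.36 after TMM scaling with an interval from -0.01 to 0.73. The adjusted p of Hlf over the 15 settings ran from 0.0533, without Gdpd3-/- replicate 6, to 0.371.

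The Gdpd3-/- libraries did not move as a block, which the plot of each Gdpd3-/- library against the Gdpd3+/+ mean shows. Replicate 6 was the lowest of the 3 for 7 genes (Tal1, Lmo2, Meis1, Mecom, Gata2, Erg and Hlf), and replicate 5 for the other 3 (Runx1, Fli1 and Gfi1b). Replicate 7 was the lowest for 0 genes and the highest for 5. Hlf was 1.83, 1.19 and 1.51 times its Gdpd3+/+ mean in replicates 5, 6 and 7, and Meis1 was 1.495, 1.05 and 1.36 times. Both genes thus have the same order of libraries, and their Pearson r over the 6 libraries on the log2 scale was 0.982. Lmo2 and Erg had an r of 0.923, Lmo2 and Gata2 of 0.898, and Tal1 and Meis1 of 0.922. Runx1 and Mecom ran opposite to each other with an r of -0.916, and Fli1 and Hlf had an r of -0.717. These are descriptions over n = 6 libraries that share genotype and depth, and no p is given. The median log2 ratio of the 10 genes to the Gdpd3+/+ mean was 0.34 in replicate 5, 0.16 in replicate 6 and 0.37 in replicate 7.

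**Figure D3:**
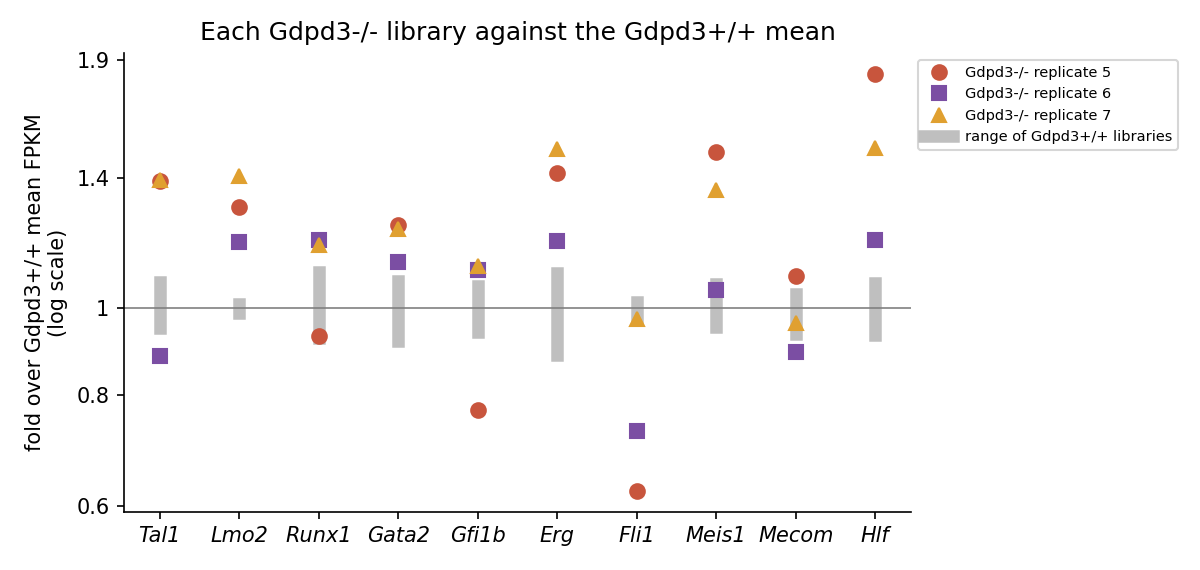
FPKM of each Gdpd3-/- library divided by the Gdpd3+/+ mean (log scale) for the 10 genes in the order of their roles, with the range of the Gdpd3+/+ libraries as a grey bar. Replicate 6 lies lowest for 7 genes, and Hlf in replicate 5 (1.83) and Fli1 in replicate 5 (0.624) lie farthest out.

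The genes whose levels were most like each of the 10 over the 6 libraries were taken from the 15103 genes with a mean of at least 1 FPKM, by Pearson r on log2(FPKM + 0.1). These r values, over n = 6 libraries, describe the pattern only. Tal1 was most like Ttc3 (0.996), Gramd4 (0.996) and Gm16059 (0.994), and Lmo2 was most like Clns1a (0.999), Rpl22l1 (0.992) and H3f3a (0.992). Gata2 was followed most closely by H2-Q1 (0.996), Obsl1 (0.996) and Gm9892 (0.994), and Gfi1b by Tmod1 (0.999), Gdpgp1 (0.997) and Hspa2 (0.992). Another of the 10 genes is not among the nearest of any of them. Erg was nearest to Gm5687 (0.996), Fam189b (0.992) and Gm15454 (0.992), and Fli1 to Ddx21 (0.999), Creb1 (0.997) and Mdm1 (0.997). For Runx1 the nearest were Gm17603 (0.984), B3gnt3 (0.980) and Snora78 (0.978), and for Mecom 1700034P13Rik (0.986), Slc17a9 (0.984) and RP23-428N8.1 (0.983). Runx1 and Mecom thus had the least close neighbours of the 10. Meis1 was nearest to Washc3 (0.998), Pcp2 (0.996) and Fgd2 (0.995), and Hlf to Npcd (0.9997), Nol12 (0.998) and Nudt9 (0.996).

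Proteins that work in the same complexes were described from a list of 24 partner and cofactor genes, all of which were tested. Limma called 1 of them, with higher values in Gdpd3-/-, and 0 with lower values (1.09% and 0.616% of all genes). Of the 24, 8 passed at an unadjusted p under 0.05 (7 higher, 1 lower), beside 22.2% of all genes. All Gdpd3-/- libraries lay above for 11 of the 24 and below for 2 (23.5% and 8.27% of all genes), as the plot of partner and cofactor genes shows, and after TMM scaling above for 6 and below for 4 (14.5% and 15.5% of all genes). The median log2 fold change of the list was 0.20, and -0.01 after TMM scaling, so its sign depends on the scaling. Cbfa2t3 (ENSMUSG00000006362.9), a corepressor that joins the Tal1 complex, was the gene called. It was at 7.70, 8.58 and 8.20 FPKM in Gdpd3+/+ and at 15.5, 13.8 and 15.6 FPKM in Gdpd3-/-. Both groups were tight and far apart, with no overlap. Cbfa2t3 rose with a log2 fold change of 0.87 (limma adjusted p = 0.0334). It was not called without Gdpd3+/+ replicate 1 (0.209), 2 (0.188) or 3 (0.206), without Gdpd3-/- replicate 5 (0.0642) or after TMM scaling (0.0573), and it was called in 7 of the 15 settings tried, with an adjusted p of 0.0187 to 0.209.

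The most abundant partner genes encode general corepressors. Ctbp1 was at 76.8, 86.3 and 85.3 FPKM in Gdpd3+/+ and at 89.4, 87.5 and 90.5 FPKM in Gdpd3-/-, above by little in each library. The histone deacetylase gene Hdac1 was at 63.1, 61.0 and 65.2 FPKM in Gdpd3+/+ and at 59.0, 41.1 and 71.5 FPKM in Gdpd3-/-, with replicate 6 low and replicate 7 high. Neither passed the test. The partners of Tal1 and Lmo2 were looked at further, a choice made after their values were seen. Lyl1, a close relative of Tal1 that can take its place, was at 8.35, 7.93 and 8.26 FPKM in Gdpd3+/+ and at 15.8, 9.86 and 12.8 FPKM in Gdpd3-/-. Replicate 6 was again the lowest of the 3, as it was for Tal1, but here it lay above all Gdpd3+/+ libraries (log2 fold change 0.62, limma adjusted p = 0.129). Ldb1, which joins Lmo2 to itself and so brings distant elements together, was at 25.4, 26.6 and 24.3 FPKM in Gdpd3+/+ and at 32.7, 37.0 and 30.9 FPKM in Gdpd3-/-. Ssbp2, which protects Ldb1 from degradation, was at 18.2, 17.5 and 16.6 FPKM in Gdpd3+/+ and at 25.6, 24.9 and 23.9 FPKM in Gdpd3-/-. Neither Ldb1 nor Ssbp2 overlapped between the genotypes. The E protein gene Tcf3 was at 22.5, 26.6 and 24.6 FPKM in Gdpd3+/+ and at 32.4, 34.5 and 35.8 FPKM in Gdpd3-/-. A further E protein gene, Tcf12, overlapped between the genotypes, at 10.9, 12.8 and 11.2 FPKM in Gdpd3+/+ and at 9.08, 14.8 and 9.90 FPKM in Gdpd3-/-, with a fitted log2 fold change of -0.08. For Ldb1, Ssbp2 and Tcf3 every Gdpd3-/- library lay above, as deposited and after TMM scaling, and none of the 3 passed over all genes (limma adjusted p of 0.106, 0.0615 and 0.0783). Hdac2 lay below in every library, at 49.8, 46.9 and 49.8 FPKM against 22.5, 33.7 and 39.7 FPKM (limma adjusted p = 0.137).

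**Figure D4:**
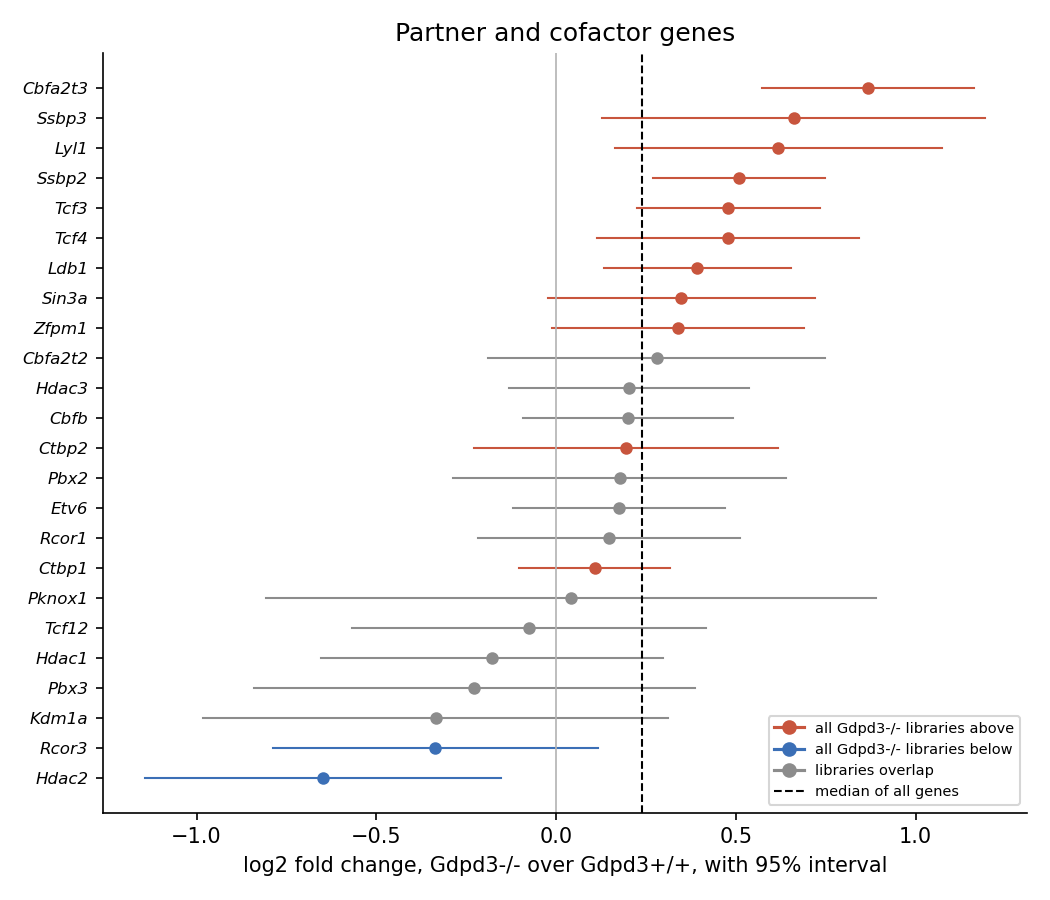
Fitted log2 fold change (Gdpd3-/- over Gdpd3+/+) with its 95% interval for 24 partner and cofactor genes on FPKM as deposited, in red where all Gdpd3-/- libraries lie above, blue where all lie below and grey where libraries overlap, with a dashed line at the median of all genes. Cbfa2t3 at 0.87 is the highest and Hdac2 at -0.65 the lowest, and after TMM scaling the median of the list moves from 0.20 to -0.01.

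Inhibitors act on the same complex from the other side, since Id proteins bind E proteins and keep them from pairing with Tal1. Limma called 0 of the 4 Id genes, beside 1.71% of all genes. An unadjusted p under 0.05 was reached by 2, 1 in each direction, beside 22.2% of all genes. The 4 had a median log2 fold change of 0.16. The most abundant of them, Id2, was at 48.6, 41.7 and 48.2 FPKM in Gdpd3+/+ and at 36.2, 43.5 and 29.98 FPKM in Gdpd3-/-. Only replicate 6 of Gdpd3-/- reached into the Gdpd3+/+ range as deposited. After TMM scaling Id2 lay below in every Gdpd3-/- library, as did Id1 (15.5% of all genes). Id1 was at 7.47, 6.04 and 6.03 FPKM in Gdpd3+/+ and at 3.23, 2.93 and 4.94 FPKM in Gdpd3-/-, below in every library (limma adjusted p = 0.118). Id3, named after its values were seen, was at 0.584, 0.810 and 0.811 FPKM in Gdpd3+/+ and at 2.75, 2.77 and 1.80 FPKM in Gdpd3-/-, above in every library as deposited and after TMM scaling (limma adjusted p = 0.0662).

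Related genes of the same families were described from a list of 15, of which 13 were tested, since Tal2 was under the filter and Fev was listed at 0 in every library. Limma called 0 of the 13 (1.71% of all genes). Of these, 5 passed at an unadjusted p under 0.05, all with higher values in Gdpd3-/-, beside 22.2% of all genes. The Gdpd3-/- libraries lay above for 5 and below for 1 (23.5% and 8.27% of all genes). After TMM scaling those libraries lay above for 4 and below for 2 (14.5% and 15.5% of all genes). The median log2 fold change was 0.38, or 0.17 after TMM scaling. Gata1, the GATA factor of red cells and megakaryocytes that replaces Gata2 during their maturation, was at 24.7, 28.3 and 27.9 FPKM in Gdpd3+/+ and at 11.0, 24.0 and 23.3 FPKM in Gdpd3-/-. Replicate 5 was far below the others, and all 3 lay below the Gdpd3+/+ range. Its log2 fold change was -0.55 (limma adjusted p = 0.326). Gfi1, the sister gene of Gfi1b, was at 17.1, 21.0 and 16.9 FPKM in Gdpd3+/+ and at 17.6, 7.88 and 17.2 FPKM in Gdpd3-/-, where replicate 6 was low.

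Ratios of a gene to a relative within the same library do not depend on the scaling of that library. The ratios given were chosen after the values were seen, so they are descriptions with no test, and 7 were computed. Gata2 to Gata1 was 1.80, 1.83 and 1.75 in Gdpd3+/+ and 5.44, 2.27 and 2.55 in Gdpd3-/-. Erg to Fli1 was 0.162, 0.168 and 0.135 in Gdpd3+/+ and 0.351, 0.253 and 0.239 in Gdpd3-/-. Both ratios were higher in every Gdpd3-/- library, highest in replicate 5. Tal1 to Lyl1 was 0.747, 0.699 and 0.692 in Gdpd3+/+ and 0.511, 0.523 and 0.633 in Gdpd3-/-. Runx1 to Runx2 was 2.52, 2.71 and 3.61 in Gdpd3+/+ and 1.47, 2.02 and 2.12 in Gdpd3-/-. These ratios were lower in every Gdpd3-/- library. The remaining 3, Gfi1b to Gfi1, Runx1 to Runx3 and Hlf to Nfil3, overlapped between the genotypes. Gfi1b to Gfi1 was 2.74, 2.51 and 2.96 in Gdpd3+/+ and 2.17, 6.97 and 3.22 in Gdpd3-/-, with replicate 6 far above the rest. The means of Runx1 to Runx3 were 1.09 and 0.918, and those of Hlf to Nfil3 were 4.63 and 3.96. Runx2, the second gene of the Runx ratio, was at 3.02, 2.96 and 2.51 FPKM in Gdpd3+/+ and at 5.21, 4.87 and 4.57 FPKM in Gdpd3-/- (limma adjusted p = 0.0868).

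Genes reported elsewhere as targets of these factors were described from a list of 20, of which 19 were tested, since Gp6 was listed at 0 in every library. Limma called 1 with higher values in Gdpd3-/- and 0 with lower values (1.09% and 0.616% of all genes). Of the 19, 5 passed at an unadjusted p under 0.05 (3 higher, 2 lower), beside 22.2% of all genes. The Gdpd3-/- libraries lay above for 4 and below for 3 (23.5% and 8.27% of all genes), and the median log2 fold change was -0.14, below the median of all genes. After TMM scaling they lay above for 1 and below for 6 (14.5% and 15.5% of all genes), with a median of -0.35. Cd34 (ENSMUSG00000016494.3), the gene called, encodes a cell surface sialomucin for which the sort did not stain. It was at 111, 111 and 105 FPKM in Gdpd3+/+ and at 187, 195 and 221 FPKM in Gdpd3-/-. It was above in every Gdpd3-/- library and rose with a log2 fold change of 0.88 (limma adjusted p = 0.0204). It was not called without Gdpd3+/+ replicate 1 (0.153), 2 (0.148) or 3 (0.158), after quantile normalization (0.0665) or with no intensity trend (0.0926). It was called in 10 of the 15 settings, with an adjusted p of 0.00656 to 0.158. The platelet chemokine gene Pf4, the most abundant of the list, was at 143, 219 and 218 FPKM in Gdpd3+/+ and at 121, 310 and 136 FPKM in Gdpd3-/-, with overlap. Of the 58 genes tested in the lists of partners, relatives, inhibitors and targets, 2 were called, Cbfa2t3 and Cd34, beside 1.71% of all genes. That count was 0 without any single Gdpd3+/+ library, 1 of 57 without Gdpd3-/- replicate 5 (0.788% of all genes) and 11 of 58 without Gdpd3-/- replicate 7 (14.2%).

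Several of the 10 genes are also expressed outside stem cells, Gfi1b, Tal1 and Fli1 in red cell or platelet precursors, Gata2 in mast cells, and Erg, Fli1, Tal1 and Lmo2 in endothelium. Marker lists of such cells were therefore read beside them, as the plot of marker gene lists shows. Summed FPKM of 12 megakaryocyte genes, most abundant Pf4 and with Gp6 at 0 in every library, was 248, 359 and 357 in Gdpd3+/+ and 225, 538 and 237 in Gdpd3-/-. Summed FPKM of 12 erythroid genes, most abundant Hba-a1, was 5004, 3739 and 3187 in Gdpd3+/+ and 1979, 3205 and 4976 in Gdpd3-/-. Neither sum separated the genotypes. Limma called 0 of the 11 megakaryocyte and 0 of the 12 erythroid genes tested (1.71% of all genes). An unadjusted p under 0.05 was reached by 2 and 1 of them, all lower, beside 22.2% of all genes. The median log2 fold change was -0.37 for the megakaryocyte list and -0.54 for the erythroid list, and -0.58 and -0.75 after TMM scaling. In the erythroid list 1 of 12 genes had a fitted value above 0 as deposited, beside 16066 of the 24689 genes tested. Gdpd3-/- replicate 5, the library with the lowest Gfi1b and Fli1, also had the lowest erythroid sum, and the part of red cell precursors in those values was not tested. The lineage gate of the sort stained for TER119 and so gated out maturing red cells. Hba-a1 was at 1312, 953 and 773 FPKM in Gdpd3+/+ and at 350, 700 and 1171 FPKM in Gdpd3-/-, and Hbb-b1 followed the same order in Gdpd3-/-. Itga2b was at 34.2, 44.7 and 45.7 FPKM in Gdpd3+/+ and at 23.2, 36.0 and 30.04 FPKM in Gdpd3-/-, with overlap.

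Genes of mast cells and basophils, where Gata2 also acts, summed to 168, 241 and 372 FPKM in Gdpd3+/+ and to 869, 729 and 611 FPKM in Gdpd3-/- over 10 genes. Every Gdpd3-/- library lay above, and the most abundant gene was Tpsb2, at 34.4, 54.9 and 101 FPKM against 237, 218 and 116 FPKM. Limma called 2 genes higher and 1 lower (1.09% and 0.616% of all genes), and 7 passed at an unadjusted p under 0.05 (22.2%). Gzmb rose by a log2 fold change of 3.11 and Cpa3 by 1.86, while Hdc fell by 0.92 on the log2 scale (limma adjusted p of 0.0242, 0.0483 and 0.0362). Gzmb was not called without Gdpd3+/+ replicate 1 (0.117) or 2 (0.149) or Gdpd3-/- replicate 5 (0.0633), and Hdc was not called without Gdpd3+/+ replicate 1 (0.208), 2 (0.215) or 3 (0.244). Cpa3 was called without Gdpd3-/- replicate 7, where 14.2% of all genes were called, but not without Gdpd3+/+ replicate 1 (0.157), 2 (0.221) or 3 (0.0686) or Gdpd3-/- replicate 5 (0.0966) or 6 (0.0691), nor after TMM scaling (0.0648). Over the 15 settings Cpa3 was called in 3, Gzmb in 10 and Hdc in 11. Cma1 was at 20.7, 41.1 and 59.0 FPKM in Gdpd3+/+ and at 223, 188 and 127 FPKM in Gdpd3-/-. No defining marker of this list was at 0. Of the 10 genes, 6 lay above in every Gdpd3-/- library and 1, Hdc, below (23.5% and 8.27% of all genes). Ms4a2, Mcpt8 and Prss34, named after their values were seen, overlapped between the genotypes. Their fitted log2 fold changes were -0.637, 0.501 and 0.296. Cpa3 was at 27.2, 43.7 and 69.6 FPKM in Gdpd3+/+ and at 169, 148 and 159 FPKM in Gdpd3-/-. Among the Gdpd3-/- libraries Cpa3 had the order of Gata2 (replicate 5 highest, replicate 6 lowest), and Cma1 and Tpsb2 were lowest in replicate 7. The part of mast cells in the level of Gata2 was not tested.

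Endothelial genes summed to 71.8, 63.2 and 61.7 FPKM in Gdpd3+/+ and to 90.9, 70.2 and 80.4 FPKM in Gdpd3-/- over 12 genes. Egfl7, the most abundant, was at 12.4, 11.9 and 9.77 FPKM in Gdpd3+/+ and at 24.7, 20.6 and 19.7 FPKM in Gdpd3-/-. Limma called 1 gene higher and 0 lower (1.09% and 0.616% of all genes). Of the 12, 2 passed at an unadjusted p under 0.05, 1 in each direction, beside 22.2% of all genes. Egfl7 rose (log2 fold change 0.93, limma adjusted p = 0.0454), was the single gene of the list called, and was not called after TMM scaling (0.0700), nor without Gdpd3+/+ replicate 1 (0.197), 2 (0.211) or 3 (0.235) or Gdpd3-/- replicate 5 (0.0757) or 6 (0.0544). Over the 15 settings Egfl7 was called in 3, with an adjusted p of 0.0221 to 0.235. Tek, the lower gene and picked out after its values were seen, was at 12.8, 11.4 and 11.6 FPKM in Gdpd3+/+ and at 7.21, 9.59 and 8.54 FPKM in Gdpd3-/-, below in every library as deposited and after TMM scaling (log2 fold change -0.50, limma adjusted p = 0.123). Tie1 was at 13.5, 13.1 and 13.4 FPKM in Gdpd3+/+ and at 20.5, 11.9 and 14.6 FPKM in Gdpd3-/-, with replicate 6 low. The defining marker Cdh5 was at 0 in Gdpd3+/+ replicate 1 and at 0.723 FPKM or less in every library. The part of endothelial cells in the levels of Erg, Fli1, Tal1 and Lmo2 was not tested.

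Lists of other cells were read as well, since abundant transcripts bear on the scaling of all FPKM values. Neutrophil and monocyte genes, most abundant S100a8, summed to 34466, 31682 and 33556 FPKM in Gdpd3+/+ and to 14240, 9036 and 10068 FPKM in Gdpd3-/-. Limma called 8 of the 13 lower and 0 higher (0.616% and 1.09% of all genes), with a median log2 fold change of -1.61. In all, 12 passed at an unadjusted p under 0.05, beside 22.2% of all genes. Fcnb was at 248, 237 and 231 FPKM against 36.4, 24.1 and 34.1 FPKM (limma adjusted p = 0.00562, with 0.0705 without Gdpd3+/+ replicate 1 and 0.0502 without replicate 2). Skeletal muscle genes, most abundant Acta1, summed to 1368, 958 and 921 FPKM in Gdpd3+/+ and to 11945, 17134 and 2263 FPKM in Gdpd3-/-. All 16 of them lay above in every Gdpd3-/- library (23.5% of all genes), and 15 after TMM scaling, all except Myh4 (14.5%). The median log2 fold change was 2.85. Limma called 0 of the 16 (1.71% of all genes), and 16 passed at an unadjusted p under 0.05 (22.2%). B cell and plasma cell genes, most abundant Jchain, summed to 2546, 2358 and 3005 FPKM in Gdpd3+/+ and to 1172, 1123 and 1999 FPKM in Gdpd3-/-. Limma called 2 of the 11 lower (Xbp1 and Mzb1) and 0 higher (0.616% and 1.09% of all genes). Of these 11, 6 passed at an unadjusted p under 0.05 (1 higher, 5 lower), beside 22.2% of all genes. The median log2 fold change was -0.68. Xbp1 was called in 9 of the 15 settings and not without Gdpd3+/+ replicate 1 (0.197), 2 (0.172) or 3 (0.189) or Gdpd3-/- replicate 5 (0.0720). The B cell genes Cd79b and Ebf1, named after their values were seen, lay above in every Gdpd3-/- library, as deposited and after TMM scaling. Cd79b was at 39.5, 39.9 and 39.8 FPKM against 50.2, 58.7 and 50.4 FPKM. Ebf1 was low, at 0.0773, 0.0563 and 0.0836 FPKM against 0.783, 0.0985 and 0.687 FPKM, with replicate 6 close to the Gdpd3+/+ range. Pax5 and Ms4a1 were at 0 in at least 1 library. Over the whole table, 0 genes were called without Gdpd3+/+ replicate 1, 1 without replicate 2 and 21 without replicate 3, where Fcnb was still called (0.0415). When FPKM was rescaled to the genes outside these classes and the immunoglobulin genes, an alternative chosen after seeing the data, the median log2 fold change of the 10 transcription factor genes was 0.13 against 0.12 for all genes. The part of these cells in the differences of the 10 genes beyond that rescaling was not tested. The lineage gate of the sort stained for the myeloid markers Mac1 and Gr-1 and the B cell marker B220, and so gated out cells that carry them.

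**Figure D5:**
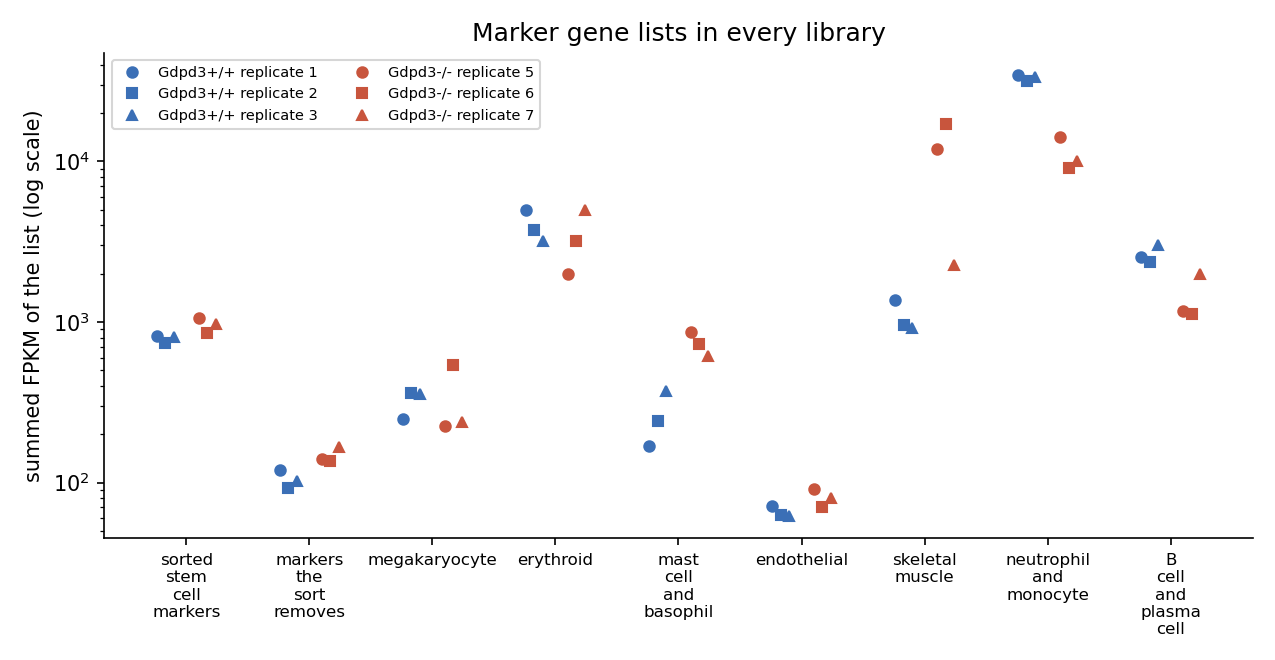
Summed FPKM (log scale) of each marker gene list in the 6 libraries, with blue points for Gdpd3+/+ and red points for Gdpd3-/-. The neutrophil and monocyte list is lower and the skeletal muscle and mast cell lists are higher in every Gdpd3-/- library, while the megakaryocyte and erythroid lists overlap.

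The 8 genes listed as stem cell markers, most abundant Ly6a, summed to 815, 740 and 812 FPKM in Gdpd3+/+ and to 1061, 854 and 976 FPKM in Gdpd3-/-. Limma called 1 of them, Cd34, with higher values and 0 with lower values (1.09% and 0.616% of all genes). CD34 was not among the proteins stained in the sort. Of the 8, 2 passed at an unadjusted p under 0.05, beside 22.2% of all genes. The Gdpd3-/- libraries had the same order in this sum (replicate 5 highest, replicate 6 lowest) as in Hlf, Meis1 and Gata2. Of 7 markers of cells that the sort gates out, most abundant Cd48, 6 were tested, and Cd8a was close to 0 throughout. They summed to 119, 92.6 and 102 FPKM in Gdpd3+/+ and to 140, 136 and 166 FPKM in Gdpd3-/-, above in every Gdpd3-/- library as deposited. The sum was not taken after TMM scaling. With that scaling all Gdpd3-/- libraries lay above for 1 of the 6, Flt3, and below for 1, Itgam (14.5% and 15.5% of all genes). Limma called 1, Flt3 (1.71% of all genes), and 3 passed at an unadjusted p under 0.05 (2 higher, 1 lower), beside 22.2% of all genes. The lower gene, Itgam, was at 22.3, 20.6 and 19.3 FPKM in Gdpd3+/+ and at 13.4, 1.69 and 8.43 FPKM in Gdpd3-/-, below in every library. Flt3, the gene of the receptor CD135, rose with a log2 fold change of 1.93 (limma adjusted p = 0.00562), and its adjusted p was 0.0705 without Gdpd3+/+ replicate 1 and 0.0502 without Gdpd3+/+ replicate 2. Cd48 was at 39.8, 41.2 and 44.8 FPKM in Gdpd3+/+ and at 51.6, 54.0 and 92.2 FPKM in Gdpd3-/-, with overlap after TMM scaling. Ly6g overlapped between the genotypes. Whether the sorted populations of the genotypes held the same share of cells that express the 10 genes was not tested.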

How the data were processed

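FPKM values of 36976 genes in 6 libraries were taken as the authors deposited them. Per the submitters' processing notes, reads were trimmed (Trimmomatic, Trim Galore, cutadapt 1.16), mapped to mm9 with STAR 2.6.1a and counted with featureCounts 1.6.1, without a stated strand setting. Read counts were not used here. The deposited gene lengths, in bases, were used to read depth from FPKM times length. The authors' DESeq2 table (base mean, fold change, standard error, statistic, p-value, adjusted p) was not used. Libraries were grouped by labelled genotype. Symbols were matched by identifier for 32350 genes (87.5%). The filter was a mean of 0.05 FPKM or more, and values were fitted as log2(FPKM + 0.1) with limma 3.58.1 in R 4.3.3 (intensity trend, genotype as the only term), with Benjamini-Hochberg adjustment over all 24689 genes tested. Two-sided exact permutation tests used SciPy 1.17.1 in Python 3.11.15, and figures used matplotlib 3.10.9. The code was tested on simulated data.

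Genes named besides the 10 are, in each list, those with an adjusted p under 0.05 (at most 6 by size of fold change), the 2 with the highest mean, and the 3 most correlated with each of the 10. Any other gene named was picked with its values in view. The lists were partners and cofactors, related family genes, inhibitors of E proteins, reported targets and 9 cell type marker lists. The 10 genes and the lists were chosen with earlier results of these data known. The alternatives changed the pseudocount to 0.01 or 1, dropped the filter or raised it to a mean of 1 FPKM, scaled by TMM (trimming 30% of M and 5% of A), normalized by quantiles, dropped the trend, used array weights or omitted each library in turn. Rescaling without 521 immunoglobulin, neutrophil and monocyte, B and plasma cell and skeletal muscle genes, and counting libraries that do not overlap under each scaling, were added after seeing the data. Promoter windows are from RefSeq (GRCm38.p6) and gene positions and exon overlaps are in mm9.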

Additional observations from a re-analysis of the deposited data

How the results depend on the processing

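No paired analysis was possible because the libraries of the genotypes share no replicate number (1, 2 and 3 against 5, 6 and 7). Over all genes, 422 calls (270 higher, 152 lower) became 225 with a pseudocount of 1, 213 with no filter (more genes tested), 673 at a mean FPKM of at least 1 (fewer genes tested), 153 with no intensity trend and 240 with array weights. TMM scaling gave 370 calls with 118 higher and 252 lower. Leaving out each library gave 0 to 3413. None of the 10 genes was called in any setting except Fli1 without Gdpd3-/- replicate 7 (14.2% of all genes called), so leaving out each library gave 0 to 1. Their median log2 fold change of 0.26 was 0.0484 with TMM scaling, 0.12 with quantile normalization and 0.13 with rescaling, and 0.20 to 0.37 with libraries left out. Of the partner and target genes, 2 calls became 1 with TMM scaling, quantile normalization, array weights or rescaling, and 0 with no intensity trend. They became 3 of 56 at a mean FPKM of at least 1 (4.46% of all genes). With libraries left out they became 0 to 11 (0% to 14.2% of all genes). Of the 10 genes, those above every Gdpd3+/+ library numbered 4 as deposited (23.5% of all genes), 1 with TMM scaling (14.5% of all genes), 2 with quantile normalization (13.6%), 2 with rescaling (17.7%) and 4 to 6 with libraries left out (25.6% to 34.7%). Signs reversed for Runx1 with TMM scaling (-0.079) and rescaling (-0.0017), for Gfi1b without Gdpd3+/+ replicate 2 (0.0166) and without Gdpd3-/- replicate 5 (0.1495), and for Mecom without Gdpd3-/- replicate 6 (0.0331), with libraries left out giving -0.1173 to 0.1495 for Gfi1b and -0.1075 to 0.0331 for Mecom. Except for the numbers of genes tested, the cause was not tested. The Gdpd3-/- libraries are shallower, and the number of independent molecules behind each value is unknown, which limits the precision of low values.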
